A study of Sus scrofa with 50 samples.

Results

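The 10 in vivo developed hatched blastocysts of the series were described by the spread between single embryos. They were 10 of the 50 single embryos sequenced, and all embryos of this source and stage entered. The dams were German Landrace × Pietrian (Piétrain) crossbred gilts inseminated with semen of 1 Duroc boar, and the embryos were flushed from the uterus on the sixth day after insemination. Before insemination all dams had been synchronized with Altrenogest and then given PMSG and human chorionic gonadotropin, so every embryo came from a hormone-treated gilt. Smart-seq2, which makes cDNA from polyadenylated RNA with an oligo-dT primer, was run on each whole embryo, so inner cell mass, hypoblast and trophectoderm were read together. Fewer cells of a type and less RNA per cell cannot be told apart in such samples. The embryos came from fewer gilts than embryos, so some of them were litter mates by the same boar. The gilt of each embryo is not given in the sources used here, so litter and embryo cannot be told apart, and the permutation tests treat as independent embryos of which some shared a dam. The embryos are called by the codes of their samples, which run from A5 to H4.

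A hatched blastocyst has left its zona pellucida and lies free in the uterus. Its outer layer, the trophectoderm, is a sealed epithelium of keratins and claudins that takes up lipids and proteins from the uterine fluid and later makes steroids and prostaglandins. The inner cells split into the epiblast, marked by POU5F1, NANOG and SOX2, and the hypoblast, marked by GATA6, SOX17 and PDGFRA. The hypoblast lays down a basement membrane of laminin, collagen IV and nidogen as it spreads along the inside of the trophectoderm. Pig conceptuses of a litter are known to differ in size and stage at this time.

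The values were CPM, read counts relative to library size, scaled by a normalization factor per embryo. Reads recovered from them numbered 4.98 ± 1.22 M per embryo (SD, n = 10), between 3.26 M in G3 and 7.58 M in G4. The sum of CPM was 0.978 M in D3 and 1.41 M in H4, and the other embryos lay between. A read was found for 14024 genes in A5 and up to 15376 genes in G4. The mean Pearson r of an embryo with the other embryos, over genes, was lowest in D3 at 0.915, followed by H4 at 0.934 and G3 at 0.937, and was highest in F3 at 0.958. Without D3 and H4 the SD of log2(CPM + 1) between embryos was lower by more than 1.5 times for 25 of 192 named genes.

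The tissue was checked with its defining markers. The trophectoderm keratins KRT8 and KRT18 had a mean of 2977 ± 1038 CPM and 1697 ± 497 CPM (SD, n = 10). CDX2 lay between 18.2 and 60.4 CPM and GATA3 between 80.5 and 341 CPM, both highest in D3. Of the epiblast factors, POU5F1 reached 14.2 to 48.9 CPM, and SOX2 was at 0 in 4 embryos and at most 0.962 CPM. The symbol NANOG belongs to 2 loci of the annotation, that on chromosome 5 at 8.25 to 23.1 CPM and that on chromosome 1 at 0.699 to 5.92 CPM. Of the hypoblast factors, GATA6 and PDGFRA averaged 140 and 36.9 CPM and SOX17 9.09 CPM. Of the defining markers of other cells, the sperm genes PRM1 and TNP1 and the uterine gene PAEP were at 0 in all 10 embryos, OVGP1 reached 0.702 CPM, HBB 1.44 CPM and the leukocyte gene PTPRC 0.24 CPM. The 14 measured genes of the uterine and oviduct epithelium list summed to 1.15 to 8.76 CPM, and none had a mean of at least 10 CPM. The sperm cell list summed to 38.9 to 57.6 CPM, mostly from ODF2, a gene also of centrosomes, at 33.7 to 48.6 CPM. The blood cell list summed to 16.9 CPM in D3 and up to 146 CPM in H4, mostly from FCER1G, the common gamma chain of Fc receptors, at 13.9 to 142 CPM. The part of such cells in the results was not tested.

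The sex labels went against the Y chromosome genes in 4 of the 10 embryos. EIF1AY, the Y copy of a translation initiation factor, was over 10 CPM in 4 of the 6 embryos labelled male and in 2 of the 4 labelled female. Its level was 104 to 182 CPM in A5, B3, B4, D3, E4 and F3, 0 in F4, G3 and H4, and 0.821 CPM, or 5 reads, in G4. The summed level of all Y genes was 607 to 723 CPM in the 6 embryos with EIF1AY and 11.2 to 25.8 CPM in the other 4, with no embryo between. The embryos labelled female with Y reads were B4 and E4, and the embryos labelled male without EIF1AY were F4 and H4. By the study's methods, sex was assigned from Y genes that include EIF1AY. Whether the labels or the embryo codes of these columns were exchanged was not tested, so the codes name columns of the table. The labels were used in no comparison.

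Genes of the X chromosome split the embryos in the same way as those of the Y chromosome. They held 3.51% to 3.94% of the CPM in F4, G3, G4 and H4 and 2.48% to 2.67% in the 6 embryos with EIF1AY, shares that do not depend on the normalization factor. Of the 206 X genes with a mean of at least 10 CPM, 57 (27.7%) were higher in each of these 4 embryos than in any of the other 6, against 153 of 6870 genes outside X and Y (2.23%) and 210 of all 7083 genes (2.96%). These 2 sets of embryos were formed from the Y genes after the values were seen, so the split is a description and has no test.

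X genes known to have a Y partner in mammals were among the 57. EIF1AX lay at 765 to 1246 CPM in F4, G3, G4 and H4 and at 344 to 509 CPM in the others. The RNA helicase gene DDX3X lay at 423 to 576 CPM against 238 to 292 CPM, and the histone demethylase gene KDM6A at 27.4 to 40.9 CPM against 12.6 to 15.9 CPM. The zinc finger gene ZFX lay at 42.2 to 59.5 CPM against 18.0 to 23.8 CPM. Among X genes without such a partner, the apoptosis inhibitor XIAP, the glycosyltransferase OGT and the lysosomal membrane gene LAMP2 showed the same separation. LAMP2, for example, had 1348 to 2375 CPM in the 4 embryos and 598 to 1127 CPM in the others. PGK1, an X gene of glycolysis, did not separate the embryos, with 455 to 739 CPM in the 4 and 278 to 520 CPM in the others. The X genes named here were chosen after their values were seen.

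**Figure D1:**
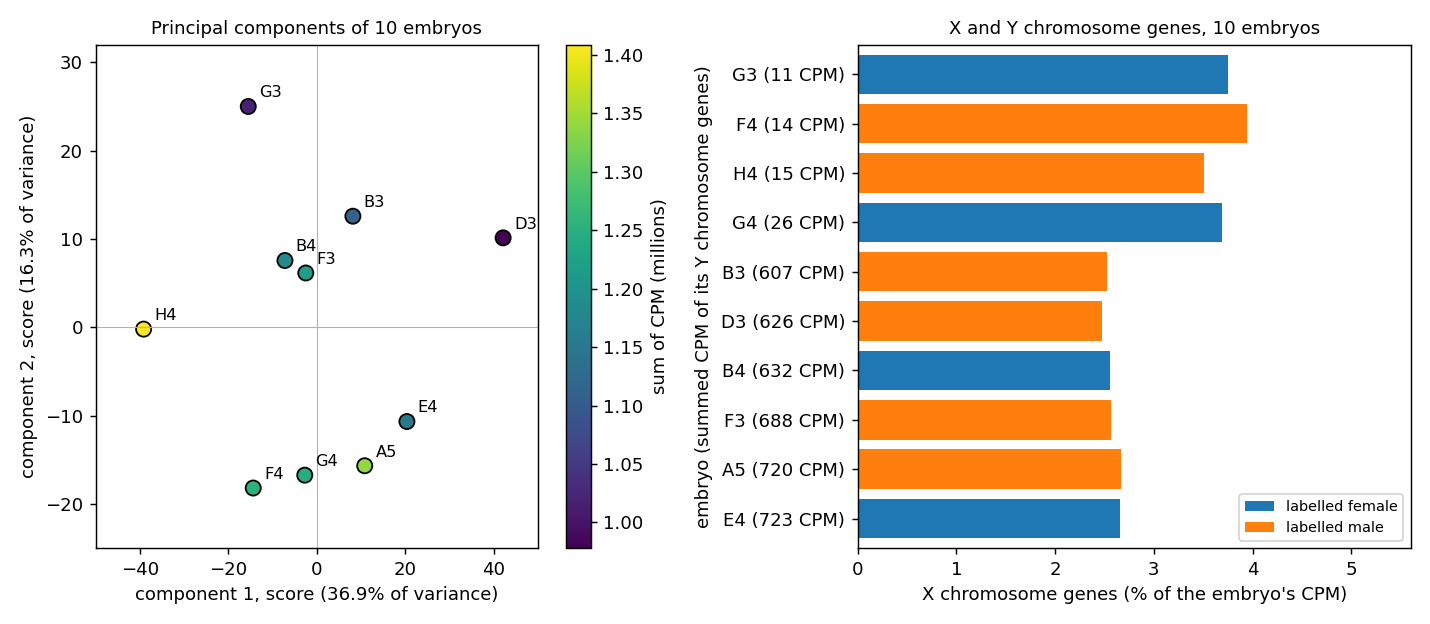
Left, scores of the 10 embryos on principal components 1 and 2 of log2(CPM + 1), coloured by the sum of CPM (in M); D3 at 42.1 and H4 at -39.2 lie at the ends of component 1. Right, bars of the percent of each embryo's CPM that fell on X chromosome genes, coloured by sex label, with the summed CPM of Y chromosome genes beside each code; F4, G3, G4 and H4 have the longest bars, from 3.51% to 3.94%.

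The most abundant transcripts came from genes with roles in iron storage, protein folding, translation, the actin cytoskeleton, mitochondrial ATP synthesis, lysosomes and lipid storage. CPM is not divided by transcript length, and exon lengths are not part of the sources used here, so the order of genes is one of reads and not of molecules. The 20 genes of highest mean held 9.10% of the CPM in G3 and up to 11.4% in H4. None of them varied over more than a 3.19-fold range between embryos. The sum of CPM was highest in H4 (1.41 M) and lowest in D3 and G3 (0.978 M and 1.02 M). The authors' normalization factor scales every gene of an embryo. High CPM in H4 and low CPM in D3 or G3 are thus in part built in.

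CDC26, which encodes a small subunit of the anaphase-promoting complex, stood first with a mean of 14118 ± 2753 CPM (SD, n = 10). Its values had a lowest of 10892 CPM in G3, a median of 14469 CPM and a highest of 19341 CPM in H4. The gene overlaps PRPF4 in the annotation, and whether strand was used in counting is not given in the sources used here, so reads of the pair cannot be told apart. FTH1, the heavy chain of the iron store ferritin, followed with 11443 ± 2943 CPM, from 7414 CPM in H4 to 17014 CPM in A5, with a median of 11543 CPM. H4 was thus highest for CDC26 and lowest for FTH1. The light chain gene FTL averaged 3674 CPM and was highest in H4 at 5796 CPM.

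The chaperone HSPA8 averaged 8149 ± 1715 CPM and the elongation factor EEF1A1 7763 ± 1378 CPM, and both were lowest in G3 and highest in H4. The cytoplasmic actins ACTB and ACTG1 averaged 7757 ± 1353 and 6323 ± 1402 CPM and were both highest in D3, at 10060 and 8740 CPM. These families have near-identical copies and pseudogenes, so the split of reads among members is uncertain. ATP5B and ATP5A1, the catalytic subunits of ATP synthase, averaged 6404 and 5542 CPM, cytochrome c (CYCS) 5030 CPM and the mitochondrial phosphate carrier SLC25A3 3987 CPM. All 4 had their highest value in H4 or F4 and their lowest in D3 or G3.

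Genes of lipid and lysosomal handling were also among the 20. GM2A, the activator of lysosomal ganglioside breakdown, averaged 6861 ± 2066 CPM, with 3590 CPM in D3, a median of 6691 CPM and 10777 CPM in H4. FABP3, a fatty acid carrier, lay between 3035 CPM in D3 and 9671 CPM in H4 with a median of 5095 CPM, the largest ratio of highest to lowest value among the 20. PLIN2, the coat protein of lipid droplets, lay between 2536 CPM in G3 and 6746 CPM in A5, with a median of 4594 CPM. NPC2, which carries cholesterol out of lysosomes, was narrower at 3607 to 5940 CPM. The remaining genes of the 20 were UBB (ubiquitin), CALM2 (calmodulin), GLRX (glutaredoxin), DSTN (actin depolymerization), HMGN2 (nucleosome binding) and RPLP0 (ribosomal stalk), with means of 3922 to 5285 CPM.

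**Figure D2:**
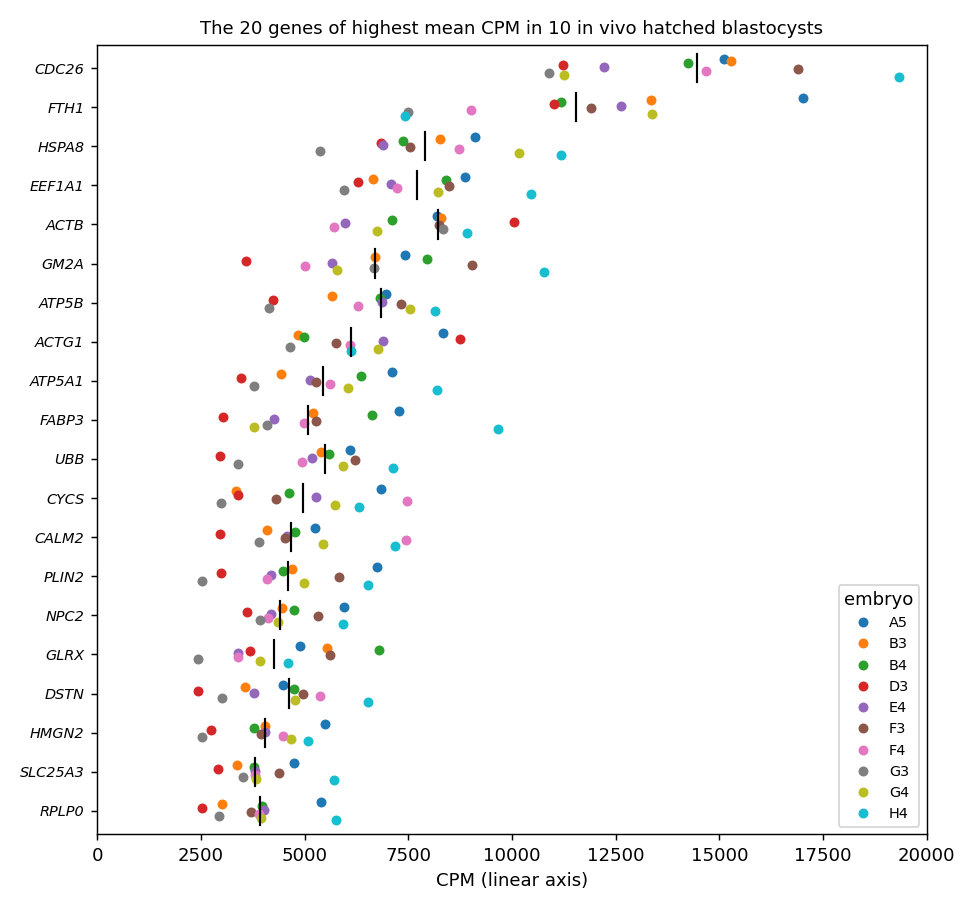
CPM (linear axis) of the 20 genes of highest mean, 1 coloured point per embryo and a black bar at the median of the 10. CDC26 and FTH1 reach means of 14118 and 11443 CPM, and for most genes D3 or G3 lie lowest and H4 or A5 highest.

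Most genes differed little between embryos. Over the 7083 genes with a mean of at least 10 CPM, of 30321 in the table, the SD of log2(CPM + 1) between embryos had a median of 0.35, and 90% of genes lay under 0.58. An SD of 1 corresponds to a 2-fold deviation. Counting of the reads alone would give a median SD of 0.10, and 6008 genes (84.8%) had more than 2 times the SD that counting gives. The libraries were amplified by PCR, and spread from making and amplifying cDNA is not part of that counting. Such technical spread and differences between embryos cannot be told apart here. An SD over 1 was found for 93 genes (1.31%).

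The 10 steadiest genes with a mean of at least 100 CPM had SDs of 0.08 to 0.12. CSNK1A1, casein kinase 1 alpha, lay between 360 CPM in B3 and 422 CPM in A5 with a median of 399 CPM, an SD of 0.08. The RNA-binding protein gene FXR1, the isoleucine tRNA synthetase gene IARS, the nucleosome-binding HMGN1, the RNA polymerase II subunit POLR2B, the ubiquitin-conjugating UBE2V1 and the p38 kinase MAPK14 had SDs of 0.10 to 0.12. In the widely used reference genes ACTB, EEF1A1 and GAPDH the SD was 0.26, 0.25 and 0.42.

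**Figure D3:**
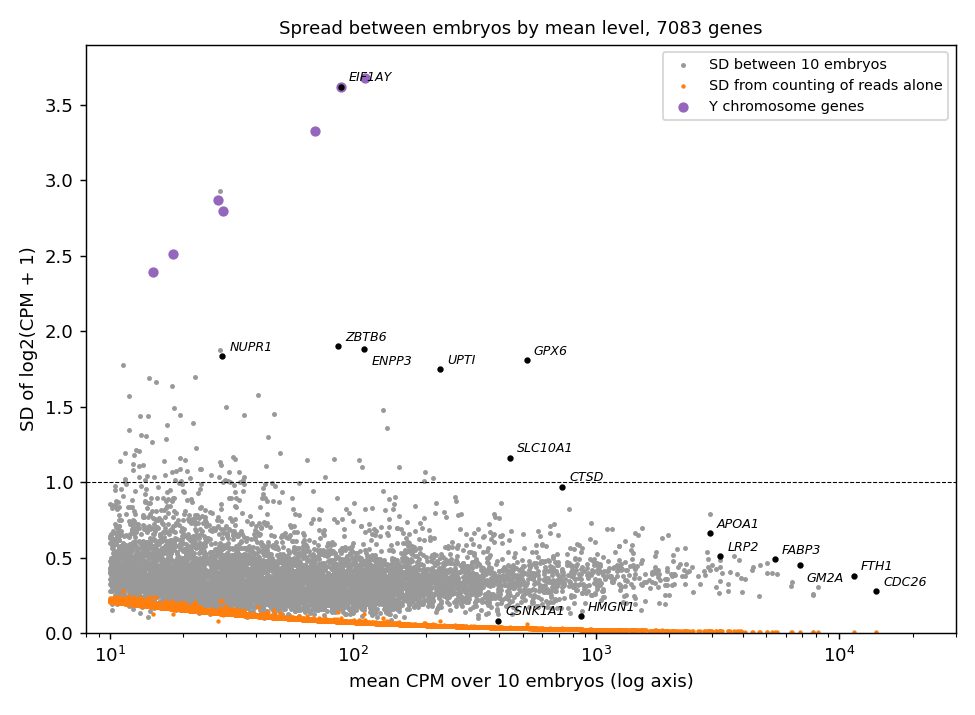
SD of log2(CPM + 1) between the 10 embryos against the mean CPM (log axis), 1 grey point per gene for 7083 genes, with the SD expected from counting of reads in orange and Y chromosome genes in purple. The dashed line marks an SD of 1, which 93 genes exceed; EIF1AY lies at 3.62 and CSNK1A1 at 0.08.

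The 7 Y chromosome genes with a mean of at least 10 CPM had SDs of 2.39 to 3.68. Apart from them, the most variable genes with a symbol were ZBTB6, ENPP3, NUPR1, GPX6, ZNF35 and UPTI. Some of these genes lay at 2 separate levels.

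A gap of more than 2 on the log2 scale between 2 sets of at least 2 embryos each was found for 14 genes (0.198% of 7083), the 7 Y genes and 7 others. This criterion was added after the values were seen. ZBTB6, a zinc finger and BTB domain gene on chromosome 1 (263823854 to 263846908), was low in B3, D3, E4 and G3 at 8.07 to 12.8 CPM and lay at 100 to 155 CPM in the other 6. It overlaps ZBTB26 in the annotation. ENPP3, an ectonucleotidase gene on chromosome 1 (31859180 to 31932617), was high in G3 and H4 at 439 and 423 CPM and lay at 12.2 to 61.5 CPM in the other 8. ENPP3 overlaps LOC102160401 in the annotation.

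ZNF35, a zinc finger gene on chromosome 13 (27902503 to 27920494), lay at 14.7 to 34.7 CPM in A5, F3, F4 and G4 and at 0.351 to 2.77 CPM in the other 6. Its lowest value, in B4, rests on 1 read. ETNPPL, which breaks down phosphoethanolamine, was low in G3 and H4 at 6.23 and 3.80 CPM and lay at 29.2 to 82.5 CPM in the others. LOC100515618 on chromosome 9 was at 26.7 to 170 CPM in E4, F3 and G3 and at 0 to 5.07 CPM in the others, with 0 in 4 embryos. Of the 7 genes outside Y, ENPP3, ETNPPL and LOC100525472 set G3 and H4 apart from the other 8, ENPP3 high there and the others low. ZBTB6, ZNF35, LOC100515618 and LOC100739719 each split the embryos in a different way.

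**Figure D4:**
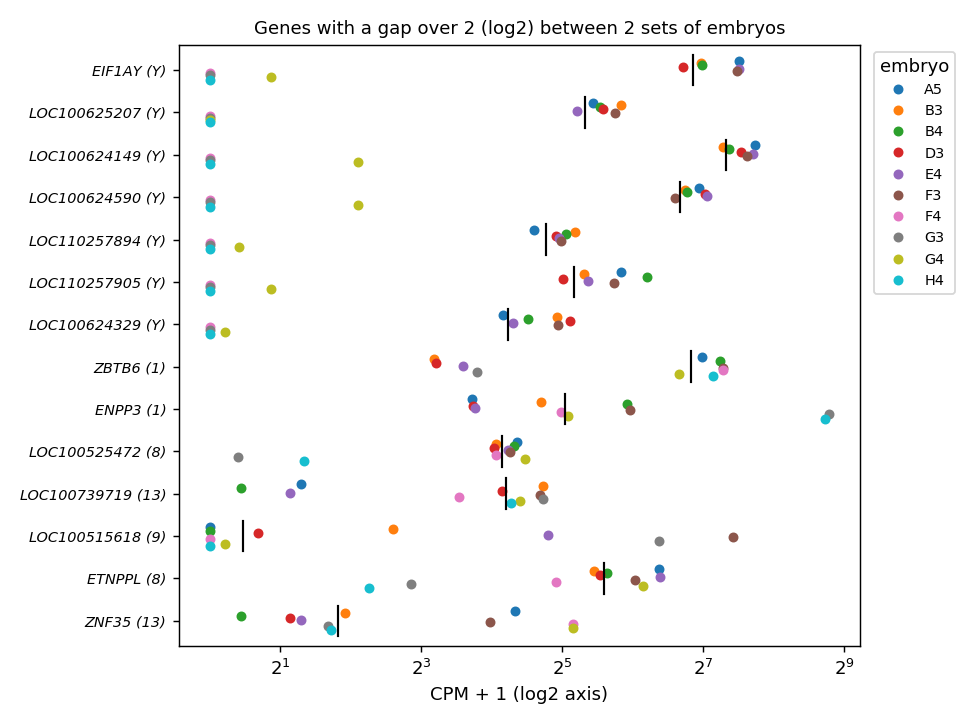
CPM + 1 (log2 axis) of the 14 genes with a gap over 2 on the log2 scale, 1 coloured point per embryo, a black bar at the median and the chromosome in parentheses. The 7 upper genes lie on Y and separate F4, G3, G4 and H4 from the others, while ZBTB6, ENPP3, ZNF35, ETNPPL and 3 LOC genes split the embryos along other lines.

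GPX6, a glutathione peroxidase gene on chromosome 7 (22256013 to 22267992), had no such gap, with 19.5 CPM in D3, a median of 281 CPM and 2188 CPM in H4. Its SD was 1.81 and fell to 0.94 without D3 and H4. UPTI, a Kunitz-type plasmin and trypsin inhibitor of the pig uterus and conceptus on chromosome 17 (47792171 to 47807770), had 27.2 CPM in D3, a median of 102 CPM and 1098 CPM in G3. NUPR1, a stress-induced nuclear protein gene on chromosome 3 (18402781 to 18404411), was at 62.2 to 91.3 CPM in B3, B4 and F3 and at 2.32 CPM in A5, 2.89 CPM in E4 and 3.22 CPM in D3. For NUPR1 the spread did not rest on D3 and H4, with an SD of 1.83 and of 1.94 without them. NUPR1 overlaps LOC110260087 in the annotation.

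Genes of steroid enzymes were among the 30 named genes of largest SD. HSD17B1, which makes estradiol, had 2.62 CPM in D3, a median of 22.7 CPM and 90.2 CPM in H4. CYP11A1, the side chain cleavage enzyme that starts steroid synthesis, had 2.21 CPM in D3, a median of 11.3 CPM and 75.7 CPM in H4, and its SD was 1.29 with and 0.76 without both embryos. The estrogen sulfotransferase SULT1E1 ran the other way, with 0.76 CPM in H4, a median of 11.3 CPM and 43.7 CPM in G4. Its value in H4 rests on 3 reads.

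SLC6A8, the creatine transporter, lay at 10.1 CPM in H4, a median of 121 CPM and 313 CPM in D3. RBP2, a carrier of retinol, had 0.481 CPM in E4 and 67.4 CPM in H4, and FBP1, an enzyme of gluconeogenesis, had 0.402 CPM in D3 and 49.9 CPM in G3. The lowest value of each of the last 2 genes rests on 2 reads. TNNI3, a troponin of heart muscle, was at 18.7 CPM in D3, a median of 62.7 CPM and 458 CPM in H4. HBE1, an embryonic globin gene, was at 60.8 CPM in E4 and 55.6 CPM in A5 and at 4.43 CPM in D3, while HBB did not exceed 1.44 CPM.

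Genes that varied together were sought among the 200 genes of largest SD, from 0.81 upwards. Of their 19900 pairs, 1271 (6.39%) had a Spearman rho with an adjusted p under 0.05 (permutation test, 2-sided, Benjamini-Hochberg over all pairs), 777 positive and 494 negative, each with an absolute rho of at least 0.85. The median rho of all pairs was 0.03. The number of calls was lowest without D3 or H4: 24 pairs were called without D3, 22 without H4 and 0 without both. Leaving out A5, E4 or G3 lowered the number to 562, 314 and 547, and leaving out F4 raised it to 1947. At the same number of 9 embryos, leaving out any of the other 8 gave 314 to 1947 pairs. With 8 embryos, other pairs of embryos left out were not tested. In each case the 200 genes of largest SD were chosen anew, so the 1271 pairs themselves were not tested again.

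Average linkage on 1 - rho, cut at 0.4, placed 166 of the 200 genes in 8 groups of 5 or more. Within-group correlation is what formed the groups and is given as a description. The median rho within groups was 0.70 to 0.79, and within the same genes without D3 and H4, Y genes aside, it was 0.57 to 0.81. The 3 largest groups followed component 1, which held 36.9% of the variance and placed D3 (42.1) and H4 (-39.2) at its ends. The 5 genes of largest positive loading on component 1 were all on Y, among them EIF1AY at 0.114. F4, G3, G4 and H4, the embryos without Y levels, scored negative on it, as did B4 and F3, which have them. Component 2, with 16.3%, placed G3 (25.0) opposite F4 (-18.2) and G4 (-16.7).

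Group 1, the largest with 61 genes, was high in G3 and H4 and low in D3 and A5. It held genes of the basement membrane and of secretion and transport: LAMA1 (laminin), NID1 (nidogen), COL4A1 (collagen IV), the signal BMP2, the keratin KRT19, the membrane peptidase MME, UPTI, ENPP3, GPX6, HSD17B1 and the bile acid carrier SLC10A1. LAMA1 had 5.03 CPM in D3, a median of 42.3 CPM and 106 CPM in G3. NID1 had 5.63 CPM in D3, a median of 18.6 CPM and 70.7 CPM in H4, and COL4A1 had 13.0 CPM in A5, a median of 24.2 CPM and 82.0 CPM in G3. The membrane components were thus highest in G3 and H4 and lowest in D3 or A5. LAMA1 and COL4A1 each overlap another annotated gene.

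SLC10A1 had 86.3 CPM in D3, a median of 287 CPM and 1640 CPM in H4, an SD of 1.16 that was 0.66 without both. NID1 and SLC10A1 had a rho of 0.99 (adjusted p = 0.0166) and a Pearson r of 0.95 (permutation p = 1e-05, the smallest these permutations can give), and r was 0.94 without the 2 embryos farthest from the median of NID1. NID1 and UPTI had a rho of 0.93 (permutation, adjusted p = 0.0253) and a Pearson r of 0.90 (permutation p = 0.00041), and r was 0.79 without the 2 farthest embryos. The pairs named in this and the next paragraphs are among the 67 that link the leading genes within and between groups. The adjusted p of their rho covers all 19900 pairs. The Pearson p is not adjusted, and the leading genes were chosen for high rho in these same embryos.

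Group 2, with 47 genes, was high in D3 and E4 and low in H4. Its members included SLC6A8, SULT1E1, the lysosomal protease CTSD, the junction genes CLDN4 (claudin) and JUP (plakoglobin), the actin crosslinker ACTN1 and the complex I subunit NDUFA10. CTSD had 160 CPM in H4, a median of 613 CPM and 1827 CPM in D3, an SD of 0.97 that was 0.57 without D3 and H4. CLDN4 had 35.7 CPM in H4, a median of 109 CPM and 228 CPM in D3. NDUFA10 and SLC6A8 had a rho of 0.96 (permutation, adjusted p = 0.0166) and a Pearson r of 0.89 (permutation p = 0.00045), and r was 0.86 without the 2 embryos farthest from the median of NDUFA10. Groups 1 and 2 ran opposite each other, with a median rho of -0.66 between their genes.

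Group 3 held 25 genes, 7 of them the Y genes, which take 2 levels and are given no correlation. Its other members, high in D3 and low in H4, included the peptide transporter SLC15A1, the sphingomyelinase SMPD3, the thrombin receptor F2R, the protease CTSZ, the cytokine receptor IL6R, the kinase PRKCB and the protease PRSS8. SLC15A1 had 3.80 CPM in H4, a median of 13.2 CPM and 47.7 CPM in D3. SLC15A1 and SMPD3 had a rho of 0.98 (permutation, adjusted p = 0.0187) and a Pearson r of 0.96 (permutation p = 4e-05), and r was 0.92 without the 2 embryos farthest from the median of SLC15A1. PRSS8 had 0.76 CPM in H4, a value of 3 reads, and 44.5 CPM in D3, and its SD of 1.34 was 0.86 without both.

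**Figure D5:**
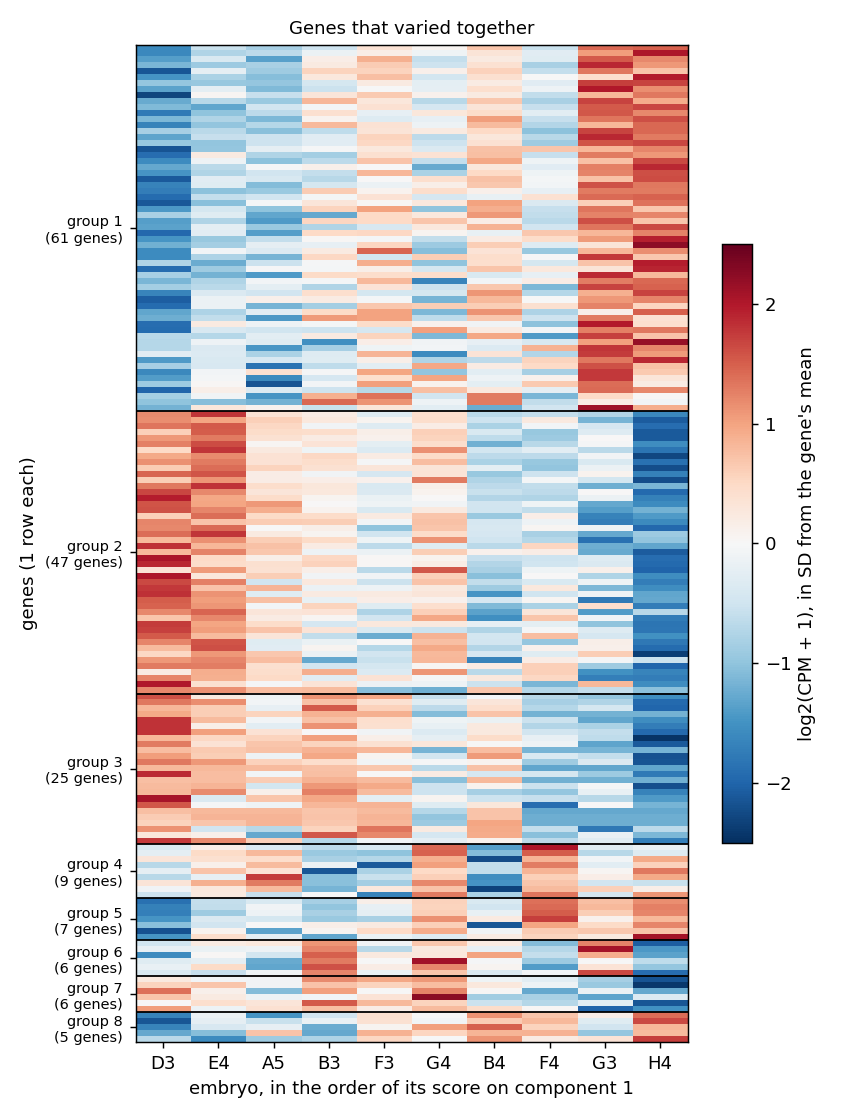
log2(CPM + 1) of the 166 genes in 8 groups, as SD from each gene's mean (red high, blue low), with the 10 embryos ordered by their score on component 1. Groups 1, 2 and 3 change colour from D3 at the left to H4 at the right, while groups 4 and 6 stand out in other embryos.

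Of the smaller groups, groups 5 and 8 also ran between D3 and H4. They were lowest in D3, at a mean of -1.63 and -1.48 SD, and highest in H4, at 1.21 and 1.28 SD. The remaining smaller groups were highest in other embryos. Group 4, with 9 genes, was high in F4 and G4 and low in B4, and held RBM3, an RNA-binding protein induced by mild cold, HNRNPH2, a splicing factor, the inositol oxygenase MIOX and the water and glycerol channel AQP9. RBM3 lay at 450 CPM in F4, 439 CPM in G4, 275 CPM in A5 and 218 CPM in E4 and at 72.7 to 131 CPM in the other 6. HNRNPH2 lay at 759 CPM in F4 and 524 CPM in G4 and at 89.2 to 236 CPM in the other 8. Both RBM3 and HNRNPH2 lie on X, where 3 of the 9 genes of the group lie. Neither of them separated F4, G3, G4 and H4 from the other 6. Their rho was 0.85 (permutation, adjusted p = 0.0483) and their Pearson r 0.87 (permutation p = 0.00047), and r dropped to 0.62 without the 2 embryos farthest from the median of HNRNPH2, so the relation rested in part on these embryos.

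Group 5 held 7 genes, 3 of them on X. NDUFA1, a complex I subunit on X, had 496 to 866 CPM in F4, G3, G4 and H4 and 124 to 324 CPM in the others, the split already seen in the X genes. Since the embryos fell into 2 clusters for such genes, no correlation is given. CYP11A1 belonged to this group.

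Group 6 held 6 genes, 3 of them metallothionein genes or neighbours on chromosome 6: MT1D, MT1A and LOC102166944. MT1D, a metal-binding protein gene, had 209 CPM in G3 and 80.7 CPM in B3 and 3.55 to 27.3 CPM in the other 8, and MT1A was likewise highest in G3 and B3, at 95.1 and 67.1 CPM. MT1D and LOC102166944, which start 9680 bases apart, had a rho of 0.99 (permutation, adjusted p = 0.0166), with a Pearson r of 0.87 (permutation p = 0.00161) and of 0.88 without the 2 embryos farthest from the median of LOC102166944. Near-identical metallothionein copies can share reads, so their separate levels are uncertain. Over all 200 genes, Y aside, 7 of the 45 pairs within 1 Mb were called, beside 6.39% of all pairs.

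Group 7, with 6 genes, was low in H4 and included OTX2, a homeobox gene, ASNS (asparagine synthetase), AASS (lysine breakdown) and the protein convertase PCSK5. OTX2 had 19.0 CPM in H4, a median of 82.0 CPM and 192 CPM in B3. ASNS had 106 CPM in G4 and 10.6 to 39.6 CPM in the other 9. Group 8, with 5 genes, was low in D3 and high in H4 and held ZBTB6, RBP2, the mitochondrial adenylate kinase AK3, FAM35A and C17H20orf202. The SD of FAM35A was 0.90 and 0.44 without D3 and H4.

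Gene lists of known function were described by how variable their members were and how far they moved together, beside a median SD of 0.35 and a median pairwise rho of 0.02 over all genes with a mean of at least 10 CPM. Cytosolic ribosomal protein genes moved together most closely. Their 80 members had a median SD of 0.41 with 2 in the top 10% of all SDs, and a median pairwise rho of 0.87. They summed to 62568 CPM in D3, a median of 95152 CPM and 145170 CPM in H4, or 6.40% to 10.3% of the CPM. Nuclear genes of oxidative phosphorylation, 66 members, had a median pairwise rho of 0.68 and summed to 40609 CPM in D3, a median of 66699 CPM and 94456 CPM in H4. Both lists were highest in H4 and lowest in D3, as was the sum of CPM. With the factors of the authors removed, their median rho was 0.73 and 0.39.

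The hypoblast list held many variable genes. Of its 13 members with a mean of at least 10 CPM, 7 were in the top 10% of SDs, among them the basement membrane genes LAMA1, COL4A1 and LAMC1 and the signal BMP2, with a list median SD of 0.59. The transcription factors GATA6 and GATA4 had SDs of 0.33 and 0.44, and the receptor PDGFRA 0.36. SOX17, a defining factor with a mean of 9.09 CPM, had an SD of 0.54. LRP2, the endocytic receptor megalin, was the most abundant member, with 1971 CPM in G3, a median of 2832 CPM and 6229 CPM in D3. D3 was thus highest for LRP2 and lowest for LAMA1, and G3 lowest for LRP2 and highest for LAMA1.

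In the trophectoderm list, 4 of 21 members were in the top 10%, led by KRT19, which had 11.9 CPM in D3, a median of 68.8 CPM and 176 CPM in H4, and by CLDN4. KRT8 ran opposite, with 4901 CPM in D3, a median of 2533 CPM and 2101 CPM in G3, as did GATA3, with 341 CPM in D3, a median of 149 CPM and 80.5 CPM in H4. Among the factor genes, TFAP2C and TFAP2A had SDs of 0.26 and 0.32, while CDX2 had 0.56, GATA3 0.58 and TEAD4 0.60. GATA3 and TEAD4 were in the top 10%. In the epiblast list 4 of 14 members were in the top 10%, OTX2, KLF4, DNMT3B and DPPA5, while SALL4 had an SD of 0.21 at 549 CPM.

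Lipoprotein and cholesterol genes were variable as well. Of 7 genes of the lipoprotein secretion list, 6 were in the top 10%, all but FABP3. Besides apolipoproteins, the list held the fatty acid and retinol carriers FABP3, FABP5 and RBP2. It summed to 4527 CPM in D3, a median of 9909 CPM and 14102 CPM in H4. FABP3 made up most of these sums, with 3035 CPM in D3 and 9671 CPM in H4. APOA1, an apolipoprotein of HDL particles, had 1047 CPM in D3, a median of 3176 CPM and 4839 CPM in G3, while APOE ran from 16.5 CPM in H4 to 102 CPM in E4. Of 14 cholesterol synthesis genes, 6 were in the top 10%, among them STARD4, a cholesterol carrier, CYP51 and SQLE.

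Glycolysis and hypoxia genes had 8 of 22 members in the top 10% and a median pairwise rho of -0.02. The glucose transporter SLC2A3 was highest in H4, at 118 CPM, where ALDOA (aldolase), at 111 CPM, and PFKL (phosphofructokinase), at 4.31 CPM, were lowest. LDHB, a lactate dehydrogenase subunit and the most abundant member, had 1351 CPM in G3, a median of 2666 CPM and 3248 CPM in A5. NRF2 and metallothionein genes had 6 of 17 members in the top 10% and a median rho of -0.04. The cell cycle lists were less variable, with 2 of 19 G1/S genes and 1 of 22 G2/M genes in the top 10% and median rho values of 0.43 and 0.48.

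The remaining lists are given by the same counts. Heat shock and unfolded protein genes had 4 of 20 members in the top 10% and a median SD of 0.31, among them HSPA5, a chaperone of the endoplasmic reticulum, with 504 CPM in G3, a median of 1007 CPM and 1943 CPM in B3. Lysosomal genes had 4 of 19, actin and junction genes 5 of 22, amino acid response genes 3 of 11 and steroid synthesis and sulfation genes 3 of 9 members in the top 10%. The p53 targets had 0 of 10, immediate early genes 0 of 4 and conceptus elongation genes 0 of 4. Of the lists of other cells and states, 2 maternal oocyte genes, 1 interferon gene, 1 sperm list gene and 1 blood cell gene had a mean of at least 10 CPM. The SD of FCER1G, the blood cell gene, was 0.94 and 0.58 without D3 and H4, and PTPRC was at 0 in 9 embryos.

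Single-embryo depth was set against every gene. The level of 0 of 7083 genes followed the reads recovered per embryo after adjustment (Spearman, permutation test, 2-sided), where 471 genes (6.65%) had an unadjusted p under 0.05. With the sum of CPM, which reflects the authors' normalization factor, 323 genes (4.56%) were called, 297 of them positive. The same factor scales every gene of an embryo, so positive relations are in part built in, and this count is no test of depth. None of 8 relations of components 1 and 2 with reads, the sum of CPM, genes detected at equal depth or the ribosomal protein share passed adjustment. The smallest adjusted p by permutation was 0.127 for rho, reached by component 2 with the genes detected and with the sum of CPM (for the sum, rho -0.75, r -0.64, and r -0.83 without the 2 farthest embryos).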

How the data were processed

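The signal values that the authors deposited are CPM made with edgeR from single-embryo Smart-seq2 libraries, after Trim Galore and HISAT2 according to the study's methods and the submitters' processing notes. Build Sscrofa11.1 was used. Versions, the counting tool and its strand setting are not given in the sources used here. Overlaps with other annotated genes are stated for some named genes only. Others, among them NDUFA1 and MT1D, overlap an annotated gene as well. The sums of CPM differed between embryos, so each embryo carries a normalization factor. Whole reads were recovered from the smallest value of each embryo, at which 100% of values were whole within 0.1 reads, and 1 read was worth 0.164 to 0.351 CPM. Intervals from reads cover counting error only. Replicates are separate embryos, whose dams are not named. The p-values are those of correlations over these embryos and do not account for litter.

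Embryos were grouped by their labels, and 0 columns of other series were used. The columns of the authors' own comparisons, which hold fold changes and p-values, were not used. Gene identifiers were matched to RefSeq (Sscrofa11.1). A listed symbol with more than 1 locus, of which there were 5, took the locus of highest mean CPM, a choice made after the values were seen. Spread was the SD of log2(CPM + 1) over 10 embryos for genes with a mean of at least 10 CPM. Spearman rho was tested with 100000 permutations (2-sided) and adjusted by Benjamini-Hochberg. Python 3.11.15, numpy 2.4.6, scipy 1.17.1 and pandas 2.3.3 were used, and the scripts were tested on simulated data.

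Named genes were the 20 of highest mean, the 30 of largest SD with a symbol, the 10 of smallest SD with a mean of at least 100 CPM, up to 6 leading genes per group, up to 4 by SD and 2 by mean per list, Y genes, and the 5 of largest loading in each direction on components 1 and 2. Other genes named were chosen after their values were seen. The members and the 25 lists were chosen with earlier results of these data known. Alternatives in pseudocount, filter, scaling, depth, correlation and embryos left out were tried. Leaving out D3 with H4, leaving out Y genes and the use of the sum of CPM were added after the values were seen. Some results are not reported here.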

Additional observations from a re-analysis of the deposited data

Results flagged for a closer look

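Of 192 named genes looked at, 4 had 1 embryo set apart from the other 9 by Dixon's criterion, which chance meets in about 1 of 20 groups. PCSK5, a protein convertase gene, was at 1.773 CPM in H4, against 6.23 to 20.5 CPM in the others. KLF4, a pluripotency factor gene, was at 3.546 CPM in H4, against 9.83 to 21.7 CPM in the others. HSD17B4, a gene of peroxisomal beta-oxidation, was at 125.6 CPM in G3, against 188 to 239 CPM in the others. LDHB, a lactate dehydrogenase gene, was at 1351 CPM in G3, against 2042 to 3248 CPM in the others.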

How the results depend on the processing

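For the 9 lists recomputed, the median rho moved by less than the SD of rho over the list's own gene pairs in 153 of 153 recomputations, a wide margin: that of oxidative phosphorylation was 0.68, and 0.39 without normalization factors. The SD of the named genes recomputed stayed within 1.5 times in 414 of 420. The number of genes with an SD over 1 (93) was 38 with a pseudocount of 5, 217 with a mean CPM of at least 1, 20 with a mean of at least 50, 61 without D3 and H4, and 68 to 109 with 1 embryo left out. The number of called pairs (1271), with genes chosen anew in each setting, was 173 with a mean of at least 1 and 786 without normalization factors. It was 699 after thinning to equal depth, 3106 with Pearson r and 0 without D3 and H4. With 1 embryo left out it ranged from 22 (without H4) to 1947 (without F4). Genes in groups (166) numbered 67 among the 100 and 347 among the 400 most variable genes, and 146 to 177 with 1 embryo left out. The share of component 1 (36.9%) was 31.5% with a mean of at least 1, 30.58% with scaled genes, 30.67% without D3 and H4, and 30.9% to 40.97% with 1 embryo left out. Genes that followed depth numbered 0 with reads and with 1 embryo left out. With the sum of CPM, which shares its factor with every gene, 323 were called. Of the 50 genes of largest SD, 33 were shared with the coefficient of variation, 24 with the median absolute deviation, 32 with a mean of at least 1, 12 with a mean of at least 50, and 38 to 48 with 1 embryo left out. Removal of the factors shifted the median log2 value by -0.48 in H4 to 0.03 in D3. The causes were not tested. Ranking per kb of exon was not run, since exon lengths were not used here. No paired analysis was possible because only 1 group of embryos was described.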
